A study of Arabidopsis thaliana with 24 samples.

Results

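The 42 nuclear genes described here encode proteins of the photosynthetic apparatus of Arabidopsis thaliana. They are the genes of the light-harvesting antenna (LHC), subunits of photosystem I (PSA) and photosystem II (PSB), and the small subunit of Rubisco (RBCS). They were chosen by locus, and all 42 were found among the 33245 genes of each count table. Messenger RNA was sequenced from whole seedlings of 4 genotypes given 150 µM ATP for 30 min or a mock treatment. No duration is recorded for the mock treatment. The genotypes were the double mutant p2k1-3 bdg-8, the single mutants bdg-8 and p2k1-3, and Col-0, the accession in which the labels name no mutation. Each of the 8 groups had 3 libraries, 24 in all. P2K1 (AT5G60300) encodes the receptor kinase that binds extracellular ATP, and BDG1 (AT1G64670) an epidermal hydrolase needed for the cuticle. Seedling age, growth conditions and the nature of both mutations are not given in the sources used here. Nothing in the labels ties replicates to separate cultures, so the p-values speak of the spread among these libraries alone, and that spread may be technical.

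Light energy enters the thylakoid membrane through chlorophyll proteins of the LHC family. Trimers of LHCB1, LHCB2 and LHCB3 (LHCII) pass it through the minor antenna proteins to photosystem II, and LHCA proteins feed photosystem I. Photosystem II takes electrons from water and photosystem I delivers them to ferredoxin, while Rubisco fixes carbon dioxide in the stroma. The reaction-centre proteins and the Rubisco large subunit are encoded in the chloroplast. The genes below are nuclear, are transcribed strongly in green tissue under light, and are under the control of regulators such as the GOLDEN2-LIKE factors.

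In seedlings carrying bdg-8, messenger RNA for nearly the whole set was lower. Genes were called at an edgeR p, adjusted over all tested genes, under 0.05. With ATP, 39 of the 41 tested genes fell in the double mutant against p2k1-3, where 25.2% of all tested genes were called lower, and 39 fell in bdg-8 against Col-0, beside 21.3%. With mock, 24 fell in the double mutant against p2k1-3, beside 16.1%, and 38 in bdg-8 against Col-0, beside 18.5%. Without replicate 3 of every group, these counts were 36 and 26 with ATP and 1 and 10 with mock. No gene of the set was called higher in these 4 comparisons. LHCB2.3 and LHCB2.1 had the largest falls when averaged over the 4. After 30 min of ATP, 14 of the genes were lower in the double mutant, beside 16.5% of all tested genes, and 4 in bdg-8, beside 17.7%. In p2k1-3, 2 were higher, beside 11.9%. Without replicate 3 of every group, 2, 0 and 0 were called. In Col-0, 21.8% of all tested genes were called in either direction. Of the set, 0 were called there by edgeR or by DESeq2, and 0 had an unadjusted p under 0.05. By edgeR, 14 were called there without replicate 1 of every group, and 0 without replicate 2 or without replicate 3.

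Libraries held 25856588 to 35239775 counts in genes, and 23193 to 23446 genes had at least 1 count. P2K1 averaged 12.1 ± 0.927 counts scaled by library size (CPM) in mock-treated p2k1-3 and 21.4 ± 0.821 CPM in mock-treated Col-0 (SD, n = 3 each). BDG1 averaged 14.2 ± 1.77 CPM in mock-treated bdg-8 and 25.4 ± 0.451 CPM in mock-treated Col-0, yet reached 112 ± 2.28 CPM in the ATP-treated double mutant and 107 ± 9.87 CPM in ATP-treated bdg-8 (SD, n = 3 each). In every group, replicate 3 resembled a mixture of replicates 1 and 2. The best mixture gave replicate 1 a weight of 0.36 to 0.52. Replicate 3 then differed from it by 1.22 to 1.66 times the variance that counting alone gives, while replicates 1 and 2, each set against the best mixture of the remaining pair, differed by 1.57 to 2.78 times. The labels give no reason for this. A library close to the mean of the other 2 narrows the spread, so counts without replicate 3 of every group are given too. The photosynthesis genes also moved together between replicates of a group. In mock-treated bdg-8, replicate 1 was the lowest library for 41 of 41 genes and replicate 2 the highest for 41. In the ATP-treated double mutant, replicate 1 was lowest for 39 and replicate 2 highest for 39. In mock-treated p2k1-3, replicate 1 was highest for 40 and replicate 2 lowest for 40. The pattern was weaker in ATP-treated p2k1-3, where replicate 1 was highest for 21 and replicate 3 lowest for 20. Replicate 3 was also lowest for 20 in ATP-treated bdg-8 and for 17 in mock-treated Col-0. The genes of the set are therefore not independent observations of a group.

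LHCB1.5 (AT2G34420), 1 of the 5 LHCB1 genes of LHCII, had 0 counts in all 24 libraries and was not tested. In the RefSeq TAIR10.1 annotation, 1045 of its 1045 exon bases (100%) were also covered by exons of 2 counted genes on the opposite strand, AT2G34410 and AT2G08665, and AT2G08665 too had 0 counts. HTSeq assigns no read that fits more than 1 gene when strand is not used, and the strand setting is not given in the sources used here, so the 0 sets no upper limit on LHCB1.5. Of the other genes, 26 had no exon base overlapped by another counted gene. More than 20% was overlapped in PSAG (61.4%), LHCB2.3 (40.6%), PSAE1 (34.1%), PSAH2 (24.8%) and LHCB6 (20.4%) and reads from the shared bases may not have been counted there. Coding sequences of close copies were 95.6% to 96.4% identical among LHCB1.1, LHCB1.2 and LHCB1.3, 96.6% between LHCB2.1 and LHCB2.2, and 96.7% to 97.3% among RBCS1B, RBCS2B and RBCS3B. Reads may have been lost or split between such copies, and their separate levels are uncertain. LHCB2.3 was less alike, 85.5% to LHCB2.1 and 84.4% to LHCB2.2.

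Per kilobase of exon, the order of levels in mock-treated Col-0 began with LHCB1.3 at 12133 CPM per kb, RBCS1A at 9540 CPM per kb, LHCB1.1 at 5516 CPM per kb and LHCB1.2 at 4749 CPM per kb. LHCA4 (3209 CPM per kb) and LHCA1 (2970 CPM per kb) followed. At the other end stood LHCA5 at 90.4 CPM per kb and PSAG at 76.0 CPM per kb, the second of these with most of its exons overlapped. LHCA6 had 38.9 CPM per kb and LHCB4.3, a rarely expressed form of CP29, had 7.47 CPM per kb. The set thus ran from among the most abundant messages of a seedling down to weakly expressed genes.

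Together the genes took 6.57 ± 0.525% of gene counts in the ATP-treated double mutant and 7.77 ± 0.403% in the mock-treated double mutant. In bdg-8 they took 7.50 ± 0.426% with ATP and 8.07 ± 0.920% with mock. In p2k1-3 the share was 10.1 ± 0.139% with ATP and 9.33 ± 0.597% with mock, and in Col-0 it was 10.4 ± 0.798% with ATP and 10.3 ± 0.344% with mock (SD, n = 3 in each group). With ATP, the groups with and without bdg-8 did not overlap. With mock they did across backgrounds, since replicate 2 of bdg-8 (8.96%) lay above replicate 2 of p2k1-3 (8.77%). Within each background the mock groups did not overlap. The highest share in bdg-8 was 8.96%, against a lowest of 10.1% in Col-0. The highest in the double mutant was 8.21%, against a lowest of 8.77% in p2k1-3. In a whole seedling, fewer green cells and less of each RNA per cell cannot be told apart.

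**Figure D1:**
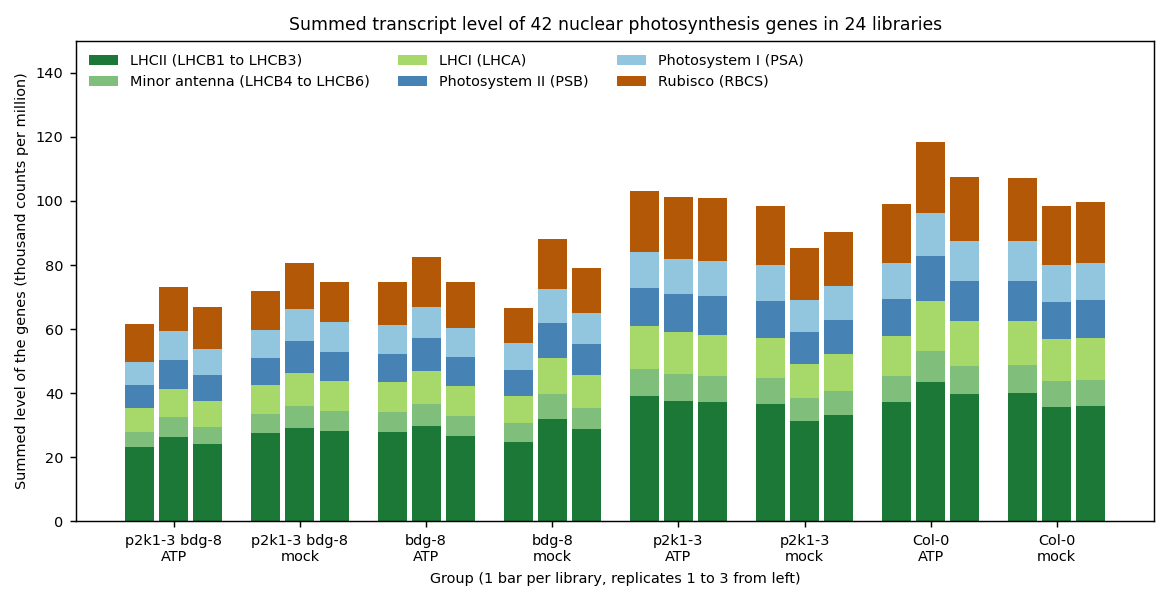
Summed level of the photosynthesis genes in each of the 24 libraries, in CPM, stacked by role. Bars run from the double mutant through bdg-8 and p2k1-3 to Col-0, each with ATP left of mock. The bars of the double mutant and bdg-8 are shorter, most clearly with ATP, and every role contributes.

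Promoters of some genes named below are shown, and each of those shown holds at least 1 of the motifs searched. Genes without any of these motifs lay at both ends of the bdg-8 effect and are not shown. They include LHCA6 and RBCS3B, among the largest mean falls, and LHCB4.3, PSAE1 and RBCS1B, among the smallest. They are the 250 bases before the annotated gene start, read from the RefSeq TAIR10.1 genome and written 5′ to 3′ on the strand of the gene. Capitals mark 3 motifs searched on both strands, the G-box CACGTG bound by light-regulated bZIP and bHLH factors, the I-box GATAAG, and CCAATC, a motif that has been associated with GOLDEN2-LIKE targets. On the opposite strand the last 2 read CTTATC and GATTGG, and these are in capitals too. None of the marked motifs overlap. The 3 LHCB2 genes lie at chr2:1824481-1824730, minus strand, chr2:1800473-1800722, minus strand, and chr3:10255656-10255905, plus strand.
LHCB2.1: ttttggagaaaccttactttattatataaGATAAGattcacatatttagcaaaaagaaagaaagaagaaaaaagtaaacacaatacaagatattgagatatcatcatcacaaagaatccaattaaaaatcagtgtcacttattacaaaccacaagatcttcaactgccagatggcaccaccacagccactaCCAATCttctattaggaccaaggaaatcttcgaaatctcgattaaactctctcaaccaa
LHCB2.2: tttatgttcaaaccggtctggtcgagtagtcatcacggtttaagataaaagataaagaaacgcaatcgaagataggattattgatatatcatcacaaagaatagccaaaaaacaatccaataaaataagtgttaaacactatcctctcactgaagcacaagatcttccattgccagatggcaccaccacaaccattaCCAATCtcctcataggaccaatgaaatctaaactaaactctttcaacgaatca
LHCB2.3: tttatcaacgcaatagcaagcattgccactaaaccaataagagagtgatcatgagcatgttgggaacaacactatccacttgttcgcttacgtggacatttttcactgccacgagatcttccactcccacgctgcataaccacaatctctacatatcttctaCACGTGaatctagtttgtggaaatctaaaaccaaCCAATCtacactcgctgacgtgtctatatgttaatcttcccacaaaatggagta
LHCB4.1 (chr5:208616-208865, plus strand) and LHCB4.2 (chr3:2717307-2717556, plus strand) encode the same antenna protein, CP29, and had unequal log2 fold changes, a contrast that was not tested.
LHCB4.1: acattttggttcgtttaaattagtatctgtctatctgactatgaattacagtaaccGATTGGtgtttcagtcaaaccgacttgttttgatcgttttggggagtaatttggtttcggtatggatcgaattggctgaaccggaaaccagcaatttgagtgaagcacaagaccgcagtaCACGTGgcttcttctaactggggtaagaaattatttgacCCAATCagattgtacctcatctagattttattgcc
LHCB4.2: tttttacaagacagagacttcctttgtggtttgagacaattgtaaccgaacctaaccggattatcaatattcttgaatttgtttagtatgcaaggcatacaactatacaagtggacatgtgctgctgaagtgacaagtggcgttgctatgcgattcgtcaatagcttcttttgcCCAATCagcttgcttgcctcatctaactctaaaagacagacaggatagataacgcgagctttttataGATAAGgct
PSBQ2 (chr4:2673244-2673493, minus strand) was among the genes that changed least, and RBCS2B (chr5:15382072-15382321, minus strand) among those that changed most.
PSBQ2: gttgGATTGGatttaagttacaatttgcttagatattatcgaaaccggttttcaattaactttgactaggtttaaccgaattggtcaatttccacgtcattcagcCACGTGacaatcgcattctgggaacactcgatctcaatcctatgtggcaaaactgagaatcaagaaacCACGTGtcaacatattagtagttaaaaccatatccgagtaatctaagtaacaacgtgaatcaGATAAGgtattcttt
RBCS2B: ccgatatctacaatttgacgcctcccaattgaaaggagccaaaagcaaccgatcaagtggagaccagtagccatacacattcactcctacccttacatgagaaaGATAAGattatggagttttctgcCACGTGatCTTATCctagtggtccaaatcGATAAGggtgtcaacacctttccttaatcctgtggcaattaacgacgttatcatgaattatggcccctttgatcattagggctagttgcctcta
CCAATC lay 59, 53 and 54 bases before the start of LHCB2.1, LHCB2.2 and LHCB2.3. Among the 42 genes, CCAATC occurred in 11 windows (26.2%), against 10.2% of 27443 genes, the I-box in 10 (23.8%, against 12.3%) and the G-box in 9 (21.4%, against 6.5%). A binding site of the clock factor CCA1, AAAAATCT or AACAATCT, occurred in 6 (14.3%, against 8.4%), and the evening element AAAATATCT in 1 (2.4%, against 2.4%). The mean log2 fold change over the 4 comparisons of bdg-8 carriers had a median of -0.53 in the 10 tested genes with CCAATC and -0.40 in the 31 without it. For the G-box the medians were -0.39 in 9 genes with it and -0.44 in 32 without, and for the I-box -0.39 in 10 with it and -0.43 in 31 without. PSBQ2 and LHCB4.1 hold these motifs too and were among the genes that changed least. These matches are letters in a window and describe no binding.

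The effect of bdg-8 was measured in 4 comparisons that share no library, with and without ATP and with and without p2k1-3. A gene counted as called when its edgeR p, adjusted over 20995 genes, was under 0.05. With ATP, 39 of 41 fell in the double mutant against p2k1-3 (median log2 fold change -0.56), where 25.2% of all tested genes were called lower. In bdg-8 against Col-0 with ATP, 39 of 41 fell (median -0.47), beside 21.3% of all genes. With mock, 24 of 41 fell in the double mutant against p2k1-3 (median -0.26), beside 16.1% of all genes, and 38 of 41 fell in bdg-8 against Col-0 (median -0.37), beside 18.5%. Medians over all genes lay between -0.02 and 0.02 in every comparison. The uncalled genes with ATP were LHCB4.3 in both comparisons, RBCS1B in the double mutant against p2k1-3 and PSAE1 in bdg-8 against Col-0. With mock in bdg-8 against Col-0 they were LHCB1.4, LHCB4.3 and PSBQ2.

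Of the 41 genes, 22 were called lower in all 4 comparisons, 15 in 3, 3 in 2 and 1, LHCB4.3, in a single one. The log2 fold change was negative in all 4 for 39 genes. How many of all tested genes were called lower repeatedly, or were negative in all 4, was not counted. Across the 41 genes, the 6 pairs of comparisons had Pearson r of 0.678 to 0.96, a description over genes that share libraries and are not independent. Averaged over the 4 comparisons, LHCB2.3 had a log2 fold change of -0.94, a fall of 47.9%. LHCB2.1 (-0.84), LHCA6 (-0.78), RBCS3B (-0.71), LHCA1 (-0.61), LHCB2.2 (-0.61), LHCB4.2 (-0.61) and RBCS2B (-0.60) came next. The smallest averages were those of RBCS1B (-0.23), PSAE1 (-0.21), PSBQ2 (-0.18) and LHCB4.3 (-0.11).

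The 2 comparisons with ATP kept their counts best. Leaving out any 1 library left 37 to 39 genes called in the double mutant against p2k1-3 and 36 to 40 in bdg-8 against Col-0, and without replicate 3 of every group 36 and 26 were called. The comparisons with mock rested more on single libraries. In bdg-8 against Col-0, 22 were called without bdg-8 replicate 1, 25 without Col-0 replicate 1 and 10 without replicate 3 of every group. Mock-treated bdg-8 replicate 1 had the highest TMM scaling factor of the series (1.07) and the lowest part of reads without a unique alignment (3.13%). Whether this bears on the count was not tested. In the double mutant against p2k1-3, 11 were called without double mutant replicate 1, 15 without its replicate 3, 11 without p2k1-3 replicate 1, 15 without its replicate 3, and 1 without replicate 3 of every group. All called genes kept their sign without replicate 3. Leaving out a library near a mixture of the other 2 moves a group mean little, so these signs could hardly change.

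**Figure D2:**
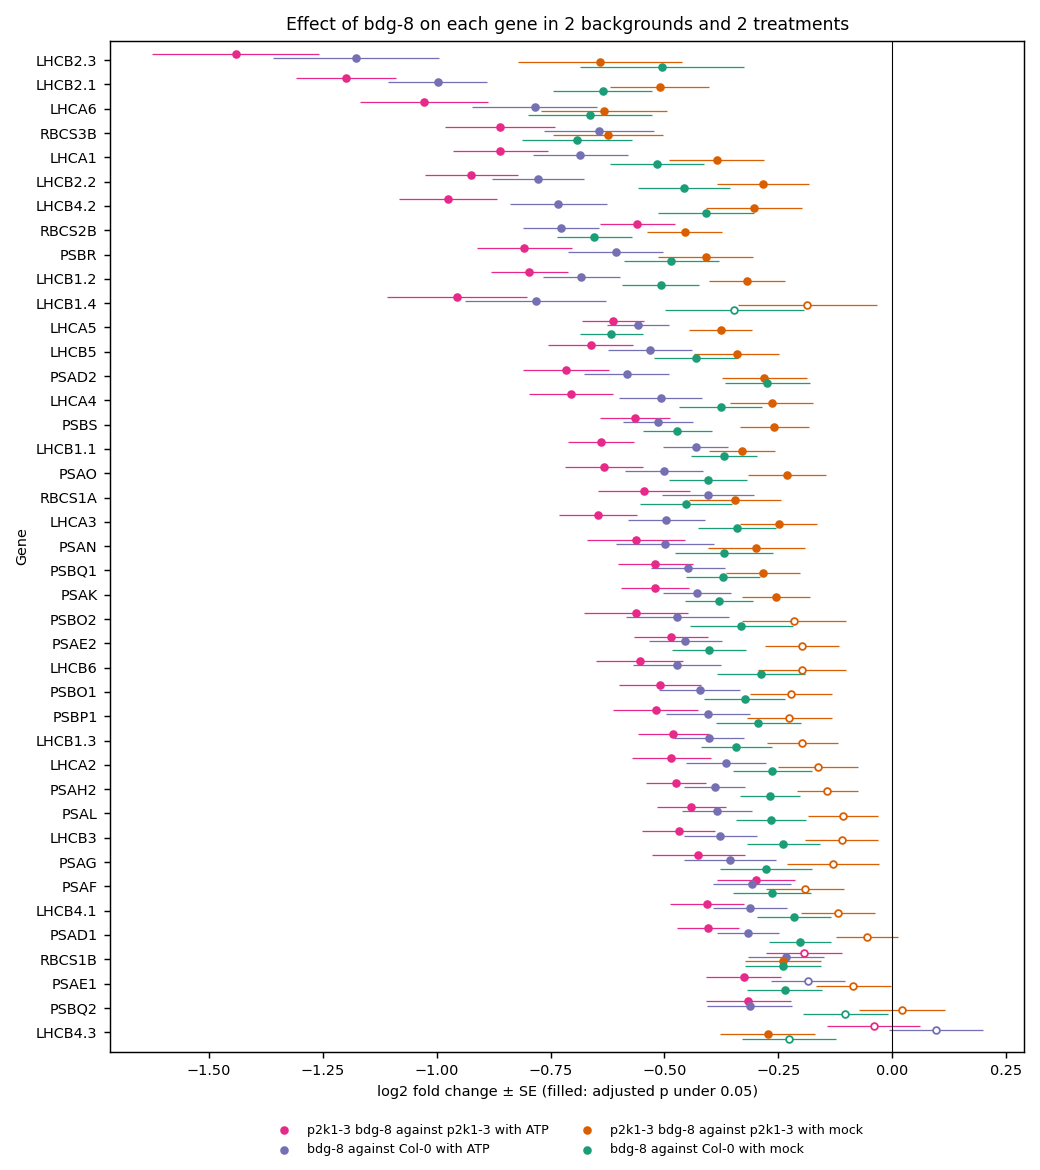
Log2 fold change ± SE of the 41 tested genes in the 4 comparisons of seedlings with and without bdg-8, ordered by the mean fall. Filled points passed the edgeR test. The genes at the large end, such as LHCB2.3 and LHCB2.1, lie below -0.5 in all 4 comparisons, and LHCB4.3 at the small end, with a mean of -0.11, lies between -0.27 and 0.10.

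The LHCII genes, which encode the mobile trimeric antenna, had the largest falls with ATP. All 8 tested genes were called lower in the double mutant against p2k1-3 and in bdg-8 against Col-0, with median log2 fold changes of -0.86 and -0.73. With mock, 5 of 8 fell in the double mutant against p2k1-3 (median -0.30) and 7 of 8 in bdg-8 against Col-0 (median -0.41). LHCB2.3 (AT3G27690) had 121, 229.6 and 173 CPM in the ATP-treated double mutant, against 460.4, 500.1 and 463 CPM in ATP-treated p2k1-3, a log2 fold change of -1.44 ± 0.18 (SE; edgeR adjusted p = 5.6e-07). It had 222, 287 and 229 CPM in ATP-treated bdg-8, against 456, 656 and 557 CPM in ATP-treated Col-0, a log2 fold change of -1.18 ± 0.18 (SE; edgeR adjusted p = 1.3e-05). Every library with bdg-8 was below every library without it when ATP was given. Without ATP it had 209, 286 and 252 CPM in the mock-treated double mutant, against 444, 340.2 and 379.9 CPM in mock-treated p2k1-3, a log2 fold change of -0.64 ± 0.18 (SE; edgeR adjusted p = 0.0087). It had 265, 438 and 349 CPM in mock-treated bdg-8, against 526, 486 and 482 CPM in mock-treated Col-0, a log2 fold change of -0.51 ± 0.18 (SE; edgeR adjusted p = 0.03). Here too no library with bdg-8 reached its counterpart group, though replicate 2 of mock-treated bdg-8 came near it.

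LHCB2.1 (AT2G05100) and LHCB2.2 (AT2G05070), nearly identical genes for the LHCII protein that is phosphorylated in state transitions, both fell in all 4 comparisons. LHCB2.1 had 619, 834 and 687 CPM in the ATP-treated double mutant, against 1627, 1708 and 1575 CPM in ATP-treated p2k1-3, a log2 fold change of -1.20 ± 0.11 (SE; edgeR adjusted p = 3.2e-09). It had 864, 948 and 794 CPM in ATP-treated bdg-8, against 1507, 1982 and 1716 CPM in ATP-treated Col-0, a log2 fold change of -0.998 ± 0.11 (SE; edgeR adjusted p = 9.4e-08). Neither pair of groups overlapped. With mock, LHCB2.1 had 989, 1110.0 and 1057 CPM in the mock-treated double mutant, against 1652, 1358 and 1486 CPM in mock-treated p2k1-3 (log2 fold change -0.51 ± 0.11), and 989, 1330.2 and 1128 CPM in mock-treated bdg-8, against 1882, 1768 and 1701 CPM in mock-treated Col-0 (log2 fold change -0.63 ± 0.11). LHCB2.2 had 715, 918 and 805 CPM in the ATP-treated double mutant, against 1547, 1567 and 1513 CPM in ATP-treated p2k1-3, a log2 fold change of -0.92 ± 0.10 (SE; edgeR adjusted p = 6.2e-08). It had 988, 1088 and 953 CPM in ATP-treated bdg-8, against 1501, 1970.1 and 1718 CPM in ATP-treated Col-0, a log2 fold change of -0.78 ± 0.10 (SE; edgeR adjusted p = 1.3e-06). Again the groups with ATP were fully apart.

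Within the LHCB1 family, which supplies most LHCII protein, LHCB1.3 (AT1G29930) was the most abundant of all 42 messages. Its log2 fold changes with ATP were nearer 0 than those of LHCB1.1, LHCB1.2 and LHCB1.4, a contrast between genes that was not tested. It had 10713, 11867 and 11014 CPM in the ATP-treated double mutant, against 16365, 15192 and 15305 CPM in ATP-treated p2k1-3, a log2 fold change of -0.48 ± 0.08 (SE; edgeR adjusted p = 1.5e-05). It had 12241, 13176 and 11769 CPM in ATP-treated bdg-8, against 15270.4, 17656 and 16213 CPM in ATP-treated Col-0, a log2 fold change of -0.40 ± 0.08 (SE; edgeR adjusted p = 0.00018). LHCB1.3 made up 53.9 to 54.6% of LHCB1 counts in the ATP-treated double mutant, against 49.2 to 50.4% in ATP-treated p2k1-3, and 52.7 to 53.4% in ATP-treated bdg-8, against 49.8 to 50.1% in ATP-treated Col-0. LHCB1.2 (AT1G29910) had 3159, 3728 and 3385 CPM in the ATP-treated double mutant, against 5992, 5999 and 5856 CPM in ATP-treated p2k1-3, a log2 fold change of -0.80 ± 0.08 (SE; edgeR adjusted p = 3.3e-08). Without ATP it had 3513, 4606 and 4132 CPM in mock-treated bdg-8, against 6182, 5599.5 and 5642 CPM in mock-treated Col-0, a log2 fold change of -0.51 ± 0.08 (SE; edgeR adjusted p = 5.4e-05). In both comparisons of LHCB1.2 the groups were apart. With ATP the same comparison of bdg-8 with Col-0 gave LHCB1.2 3902, 4087 and 3764 CPM in bdg-8, against 5695, 6907 and 6256 CPM in Col-0, a log2 fold change of -0.68 ± 0.08 (SE; edgeR adjusted p = 5.5e-07). LHCB1.4 (AT2G34430), the neighbour of the uncounted LHCB1.5, had 806, 1341 and 1038 CPM in the ATP-treated double mutant, against 2131, 2064 and 1981 CPM in ATP-treated p2k1-3, a log2 fold change of -0.96 ± 0.15 (SE; edgeR adjusted p = 1.5e-05). It had 1348, 1749 and 1338 CPM in ATP-treated bdg-8, against 2148, 2963 and 2520.2 CPM in ATP-treated Col-0, a log2 fold change of -0.78 ± 0.15 (SE; edgeR adjusted p = 0.00022). With mock LHCB1.4 was called in neither comparison, with log2 fold changes of -0.19 in the double mutant and -0.35 in bdg-8. LHCB3, the third trimer protein, had smaller log2 fold changes of -0.47 ± 0.08 in the double mutant and -0.38 ± 0.08 in bdg-8 with ATP.

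**Figure D3:**
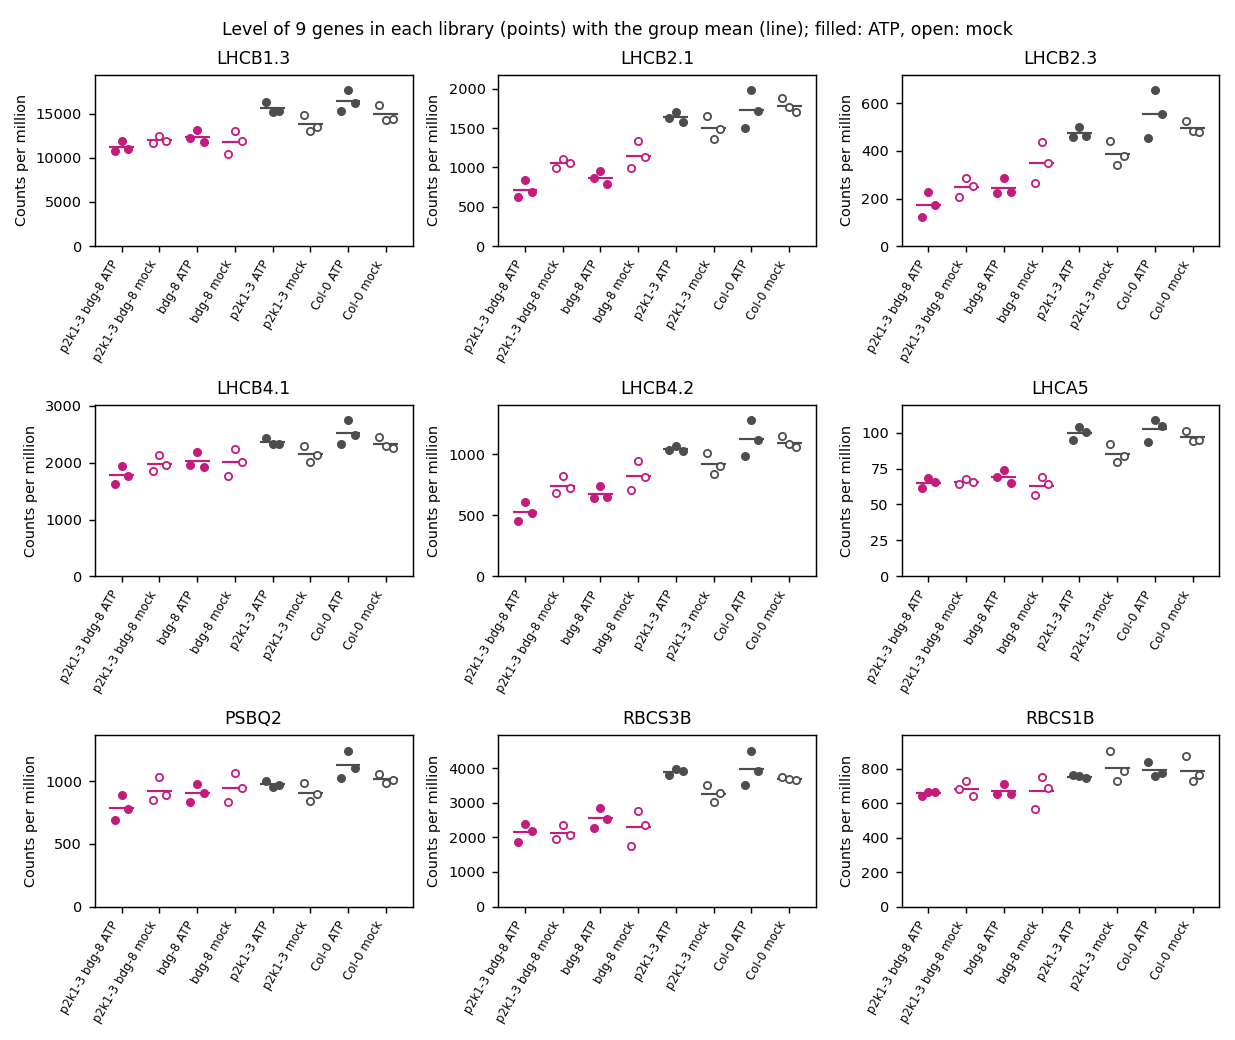
Level in CPM of 9 of the genes in every library, with groups from the double mutant at the left to Col-0 at the right and ATP (filled) left of mock (open) within each genotype. Lines mark group means and pink marks groups that carry bdg-8. LHCB2.3 and LHCB2.1 are lowest in the ATP-treated double mutant, while LHCB4.1, PSBQ2 and RBCS1B differ less between groups.

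The minor antenna proteins CP29, CP26 and CP24 connect LHCII to the photosystem II core and are encoded by LHCB4, LHCB5 and LHCB6. With ATP, 4 of 5 genes fell in the double mutant against p2k1-3 (median -0.55) and 4 of 5 in bdg-8 against Col-0 (median -0.47). With mock, 3 of 5 and 4 of 5 fell (medians -0.27 and -0.29). LHCB4.2 (AT3G08940) had 455, 611 and 521 CPM in the ATP-treated double mutant, against 1035, 1064 and 1022 CPM in ATP-treated p2k1-3, a log2 fold change of -0.98 ± 0.11 (SE; edgeR adjusted p = 5.7e-08). It had 640.5, 741 and 649 CPM in ATP-treated bdg-8, against 983, 1277 and 1114 CPM in ATP-treated Col-0, a log2 fold change of -0.73 ± 0.11 (SE; edgeR adjusted p = 5.5e-06). Its CP29 companion LHCB4.1 (AT5G01530) had 1624, 1942 and 1771 CPM in the ATP-treated double mutant, against 2427, 2322 and 2327 CPM in ATP-treated p2k1-3, a log2 fold change of -0.41 ± 0.08 (SE; edgeR adjusted p = 0.00018). LHCB4.2 therefore held a smaller part of LHCB4 counts where it fell. Its share was 21.9 to 23.9% in the ATP-treated double mutant, against 29.9 to 31.4% in ATP-treated p2k1-3, and 24.6 to 25.3% in ATP-treated bdg-8, against 29.6 to 31.7% in ATP-treated Col-0. The 2 coding sequences are 81.1% identical, so reads are told apart more readily here than in the LHCB1 or RBCS copies. No library of the double mutant reached p2k1-3 for either CP29 gene. LHCB5 (AT4G10340), the most abundant minor antenna gene, had 1989, 2443 and 2139.6 CPM in the ATP-treated double mutant, against 3599.9, 3424 and 3374 CPM in ATP-treated p2k1-3, a log2 fold change of -0.66 ± 0.09 (SE; edgeR adjusted p = 2.2e-06). It had 2207, 2975 and 2551 CPM in mock-treated bdg-8, against 3672, 3391 and 3357 CPM in mock-treated Col-0, a log2 fold change of -0.43 ± 0.09 (SE; edgeR adjusted p = 0.00082). The LHCB5 groups did not overlap in either comparison. LHCB4.3 was called lower only in the double mutant against p2k1-3 with mock, with a log2 fold change of -0.27 ± 0.10 (SE).

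LHCI, the antenna of photosystem I, is built from LHCA1 to LHCA4, while LHCA5 and LHCA6 join photosystem I to the NDH complex of cyclic electron flow. All 6 genes fell with ATP in the double mutant against p2k1-3 (median -0.68) and in bdg-8 against Col-0 (median -0.53). With mock, 5 of 6 fell in the double mutant against p2k1-3 (median -0.32) and 6 of 6 in bdg-8 against Col-0 (median -0.45). LHCA6 (AT1G19150), a rare message, had 18.1, 24.9 and 21.6 CPM in the ATP-treated double mutant, against 44.0, 45.4 and 42.9 CPM in ATP-treated p2k1-3, a log2 fold change of -1.03 ± 0.14 (SE; edgeR adjusted p = 1.4e-06). It had 23.8, 30.0 and 23.6 CPM in ATP-treated bdg-8, against 38.1, 51.2 and 43.9 CPM in ATP-treated Col-0, a log2 fold change of -0.78 ± 0.14 (SE; edgeR adjusted p = 6.1e-05). It was lower with mock too, at 21.3, 29.3 and 25.2 CPM in the mock-treated double mutant, against 43.5, 34.6 and 39.1 CPM in mock-treated p2k1-3 (log2 fold change -0.63 ± 0.14), and 22.6, 35.3 and 27.8 CPM in mock-treated bdg-8, against 47.2, 44.6 and 43.7 CPM in mock-treated Col-0 (log2 fold change -0.66 ± 0.14). All 4 pairs of groups were apart, and mock-treated bdg-8 replicate 2 lay nearest to Col-0. LHCA5 (AT1G45474), its NDH partner, had 56.4, 69.1 and 64.0 CPM in mock-treated bdg-8, against 101, 94.4 and 94.7 CPM in mock-treated Col-0, a log2 fold change of -0.62 ± 0.07 (SE; edgeR adjusted p = 4.1e-07), the smallest p of the set in that comparison. It had 63.9, 67.6 and 65.4 CPM in the mock-treated double mutant, against 92.1, 79.5 and 84.0 CPM in mock-treated p2k1-3, a log2 fold change of -0.38 ± 0.07 (SE; edgeR adjusted p = 2e-04). With ATP it had 69.4, 74.0 and 64.8 CPM in ATP-treated bdg-8, against 93.3, 109 and 105 CPM in ATP-treated Col-0, a log2 fold change of -0.56 ± 0.07 (SE; edgeR adjusted p = 4.9e-07). Both NDH-linked genes were thus lower whether or not ATP was given. LHCA1 (AT3G54890) had 2211, 3066 and 2652 CPM in mock-treated bdg-8, against 3980.3, 3733 and 3628 CPM in mock-treated Col-0, a log2 fold change of -0.52 ± 0.10 (SE; edgeR adjusted p = 0.00043). LHCA4 (AT3G47470), the most abundant of the family, had 2296, 2836 and 2490.0 CPM in the ATP-treated double mutant, against 4194, 4175 and 4055 CPM in ATP-treated p2k1-3, a log2 fold change of -0.70 ± 0.09 (SE; edgeR adjusted p = 7.3e-07). For LHCA1 and LHCA4 every mutant library was below every library it was set against. LHCA2 changed least, with log2 fold changes of -0.48 and -0.36 with ATP.

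Among photosystem II genes are those of the oxygen-evolving complex (PSBO, PSBP, PSBQ and PSBR) and PSBS, the sensor of non-photochemical quenching. All 7 fell with ATP in the double mutant against p2k1-3 (median -0.52) and in bdg-8 against Col-0 (median -0.45). With mock, 3 of 7 fell in the double mutant (median -0.23) and 6 of 7 in bdg-8 (median -0.33). PSBR (AT1G79040) had 1227, 1497 and 1352 CPM in the mock-treated double mutant, against 1891, 1701 and 1820.3 CPM in mock-treated p2k1-3, a log2 fold change of -0.41 ± 0.10 (SE; edgeR adjusted p = 0.0041). With ATP its log2 fold changes were -0.81 ± 0.10 in the double mutant and -0.61 ± 0.10 in bdg-8. PSBS (AT1G44575) had 603, 803 and 725 CPM in mock-treated bdg-8, against 1003, 968 and 983 CPM in mock-treated Col-0, a log2 fold change of -0.47 ± 0.08 (SE; edgeR adjusted p = 4.2e-05). The bdg-8 libraries of PSBS were spread more widely than those of Col-0 and lay below them. PSBO1 (AT5G66570), the most abundant of these messages, had 2238, 2756 and 2457 CPM in the ATP-treated double mutant, against 3567, 3529 and 3512 CPM in ATP-treated p2k1-3, a log2 fold change of -0.51 ± 0.09 (SE; edgeR adjusted p = 4.1e-05). The pair of PSBQ genes, 76.9% identical in coding sequence, had unequal log2 fold changes, a contrast that was not tested. PSBQ1 had log2 fold changes of -0.52, -0.45, -0.28 and -0.37 in the double mutant and bdg-8 with ATP and the double mutant and bdg-8 with mock, all called. PSBQ2 (AT4G05180) had -0.32 and -0.31 with ATP, both called, and 0.02 and -0.10 with mock, neither called.

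The photosystem I genes had smaller median falls than the antenna genes in each of the 4 comparisons. Their proteins include PSAD and PSAE, which dock ferredoxin, PSAF, which receives plastocyanin, and PSAH, PSAL and PSAO, where LHCII binds in state transitions. With ATP, 11 of 11 fell in the double mutant against p2k1-3 (median -0.47) and 10 of 11 in bdg-8 against Col-0 (median -0.39). With mock, 4 of 11 fell in the double mutant (median -0.19) and 11 of 11 in bdg-8 (median -0.27). PSAF (AT1G31330), the most abundant of them, had 1669, 2113 and 1892 CPM in the ATP-treated double mutant, against 2498, 2192 and 2293 CPM in ATP-treated p2k1-3, a log2 fold change of -0.30 ± 0.09 (SE; edgeR adjusted p = 0.005). PSAD2 (AT1G03130) had 365, 478 and 437 CPM in the ATP-treated double mutant, against 702, 685 and 715 CPM in ATP-treated p2k1-3, a log2 fold change of -0.72 ± 0.09 (SE; edgeR adjusted p = 8.3e-07). Its copy PSAD1 (AT4G02770) had 1308, 1517 and 1453 CPM in the ATP-treated double mutant, against 1902, 1853 and 1911 CPM in ATP-treated p2k1-3, a log2 fold change of -0.41 ± 0.07 (SE; edgeR adjusted p = 2.4e-05). The double mutant libraries were below p2k1-3 for PSAF, PSAD1 and PSAD2 alike. With mock, the double mutant had a called log2 fold change of -0.28 for PSAD2 and an uncalled -0.06 for PSAD1 against p2k1-3.

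The Rubisco small-subunit genes were the only role group whose median fall in bdg-8 against Col-0 was no smaller with mock than with ATP, at -0.52 with ATP and -0.55 with mock, with all 4 called both times. The difference between those 2 comparisons was called for 0 of the 4 by edgeR, 0 by DESeq2 and 0 at an unadjusted p under 0.05, beside 7.91% of all genes called. Against p2k1-3, 3 of 4 fell in the double mutant with ATP (median -0.55) and 4 of 4 with mock (median -0.40). RBCS3B (AT5G38410) had 1878, 2373 and 2182 CPM in the ATP-treated double mutant, against 3795, 3962 and 3928 CPM in ATP-treated p2k1-3, a log2 fold change of -0.86 ± 0.12 (SE; edgeR adjusted p = 2.2e-06). With mock it had 1948, 2348 and 2059.5 CPM in the mock-treated double mutant, against 3498, 3024 and 3274 CPM in mock-treated p2k1-3 (log2 fold change -0.62 ± 0.12), and 1750.3, 2747 and 2368 CPM in mock-treated bdg-8, against 3752, 3692 and 3648 CPM in mock-treated Col-0 (log2 fold change -0.69 ± 0.12). RBCS3B was lower in every library with bdg-8 than in its counterpart group. RBCS2B (AT5G38420) had 1557, 1762 and 1609.8 CPM in the mock-treated double mutant, against 2468, 2052 and 2238 CPM in mock-treated p2k1-3, a log2 fold change of -0.46 ± 0.08 (SE; edgeR adjusted p = 0.00018). With ATP it had 1566, 1731 and 1618 CPM in ATP-treated bdg-8, against 2511, 2916 and 2709 CPM in ATP-treated Col-0, a log2 fold change of -0.73 ± 0.08 (SE; edgeR adjusted p = 1.6e-07). In mock-treated bdg-8 against Col-0 its log2 fold change was -0.65 ± 0.08 (SE; edgeR adjusted p = 2.1e-06), from 1359, 1809.9 and 1681 CPM in bdg-8 and 2701, 2401 and 2529 CPM in Col-0. RBCS2B was apart between groups in all 3. RBCS1A (AT1G67090), the most abundant copy, had 7620.0, 9186 and 8716 CPM in the ATP-treated double mutant, against 12174, 12493 and 12563 CPM in ATP-treated p2k1-3, a log2 fold change of -0.54 ± 0.10 (SE; edgeR adjusted p = 7.6e-05). RBCS1B (AT5G38430) changed least, with log2 fold changes of -0.19 (not called) and -0.23 with ATP. As a share of RBCS counts, RBCS3B had 16.1 to 17.2% in the ATP-treated double mutant, against 20 to 20.3% in ATP-treated p2k1-3, while RBCS1B had 4.83 to 5.51% in the ATP-treated double mutant, against 3.8 to 4.01% in ATP-treated p2k1-3. RBCS1B, RBCS2B and RBCS3B are neighbours with nearly identical coding sequences, and reads may have been split among them.

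The most abundant gene of each role had every bdg-8 library below its counterpart group in the comparisons not yet given. LHCB1.3, PSBO1 and PSAF did not pass the test in the double mutant against p2k1-3 with mock, and all other values below did. LHCB1.3 had 11672, 12422 and 11953 CPM in the mock-treated double mutant, against 14814, 12999.8 and 13519 CPM in mock-treated p2k1-3 (log2 fold change -0.20 ± 0.08), and 10433, 12993 and 11895 CPM in mock-treated bdg-8, against 16026, 14307 and 14438 CPM in mock-treated Col-0 (log2 fold change -0.34 ± 0.08). LHCB5 had 2342, 2669 and 2436 CPM in the mock-treated double mutant, against 3434, 2906 and 3097 CPM in mock-treated p2k1-3 (log2 fold change -0.34 ± 0.09), and 2487, 2779 and 2451 CPM in ATP-treated bdg-8, against 3429, 4077 and 3652 CPM in ATP-treated Col-0 (log2 fold change -0.53 ± 0.09). For LHCB1.3 and LHCB5 the double mutant and p2k1-3 lay closer together with mock than with ATP. LHCA4 had 2901, 3257 and 2989 CPM in the mock-treated double mutant, against 3978, 3414 and 3596 CPM in mock-treated p2k1-3 (log2 fold change -0.26 ± 0.09), and 2782, 3643 and 3182 CPM in mock-treated bdg-8, against 4379, 4056 and 4032 CPM in mock-treated Col-0 (log2 fold change -0.38 ± 0.09). With ATP, LHCA4 had 2941, 3255 and 2903 CPM in ATP-treated bdg-8, against 3879, 4837 and 4222 CPM in ATP-treated Col-0 (log2 fold change -0.51 ± 0.09). PSBO1 had 2522, 2971 and 2723 CPM in the mock-treated double mutant, against 3394, 3011 and 3180.5 CPM in mock-treated p2k1-3 (log2 fold change -0.22 ± 0.09), and 2424, 3236 and 2856 CPM in mock-treated bdg-8, against 3709, 3446 and 3506 CPM in mock-treated Col-0 (log2 fold change -0.32 ± 0.09). The highest double mutant library and the lowest of p2k1-3 nearly met. With ATP, PSBO1 had 2679, 3086 and 2750.1 CPM in ATP-treated bdg-8, against 3499, 4119.9 and 3795 CPM in ATP-treated Col-0 (log2 fold change -0.42 ± 0.09). PSAF had 1962, 2279.6 and 2106 CPM in the mock-treated double mutant, against 2575, 2309 and 2368 CPM in mock-treated p2k1-3 (log2 fold change -0.19 ± 0.09), and 1953, 2412 and 2166 CPM in mock-treated bdg-8, against 2788, 2484 and 2571 CPM in mock-treated Col-0 (log2 fold change -0.26 ± 0.09). With ATP, PSAF had 2122, 2334 and 2043 CPM in ATP-treated bdg-8, against 2514, 2889 and 2644 CPM in ATP-treated Col-0 (log2 fold change -0.31 ± 0.09). PSAF, on the side of photosystem I that receives electrons, had the smallest mean fall of these 6 genes. RBCS1A had 7835, 9539 and 8202 CPM in the mock-treated double mutant, against 11432, 10291 and 10777 CPM in mock-treated p2k1-3 (log2 fold change -0.35 ± 0.10), and 7133, 10110.3 and 9259.7 CPM in mock-treated bdg-8, against 12365, 11742 and 12182 CPM in mock-treated Col-0 (log2 fold change -0.45 ± 0.10). With ATP, RBCS1A had 8959, 10312 and 9587 CPM in ATP-treated bdg-8, against 11519.9, 13939 and 12753 CPM in ATP-treated Col-0 (log2 fold change -0.41 ± 0.10).

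For the p2k1-3 mutation alone no gene of the set was called. With mock, 0 of 41 were called in p2k1-3 against Col-0 by edgeR and 0 by DESeq2, while 15 had an unadjusted p under 0.05. Of all genes, 5.29% were called in either direction. The median log2 fold change was -0.17 and 40 of 41 were negative. In 27 genes every p2k1-3 library was below every Col-0 library, an arrangement found in 12.4% of all genes. Without p2k1-3 replicate 1, the highest of its group for 40 genes, 2 were called, and without replicate 1 of every group 16 were. With ATP, 0 of 41 were called in p2k1-3 against Col-0, beside 6.67% of all genes, with 5 at an unadjusted p under 0.05, 1 by DESeq2 and a median of -0.11. There 1 was called without Col-0 replicate 1, and 12 without replicate 1 of every group.

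On the bdg-8 background, p2k1-3 made no called difference with mock. In the double mutant against bdg-8, 0 of 41 were called by edgeR and 0 by DESeq2, 1 had an unadjusted p under 0.05, the median was -0.06, and 0.667% of all genes were called. With ATP, 3 of 41 were lower in the double mutant than in bdg-8 (median -0.22), beside 4.58% of all genes, and all 41 log2 fold changes were negative. DESeq2 called 6, and 28 had an unadjusted p under 0.05. In 18 genes every double mutant library was below every bdg-8 library, an arrangement found in 13.8% of all genes. PSAE1 (AT4G28750) had 122, 136 and 134 CPM in the ATP-treated double mutant, against 149.6, 189.6 and 156 CPM in ATP-treated bdg-8, a log2 fold change of -0.34 ± 0.08 (SE; edgeR adjusted p = 0.015). PSAH2 (AT1G52230) had 378, 435 and 409 CPM in the ATP-treated double mutant, against 479, 507 and 484 CPM in ATP-treated bdg-8, a log2 fold change of -0.27 ± 0.07 (SE; edgeR adjusted p = 0.016). LHCB4.2 had 455, 611 and 521 CPM in the ATP-treated double mutant, against 640.5, 741 and 649 CPM in ATP-treated bdg-8, a log2 fold change of -0.35 ± 0.11 (SE; edgeR adjusted p = 0.046). These calls moved with single libraries. Without double mutant replicate 1, 0 were called, without its replicate 2, 16, and without its replicate 3, 1. Without bdg-8 replicate 2, 0 were called. Leaving out a replicate number from every group, 8 were called without replicate 1, 19 without replicate 2 and 0 without replicate 3.

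The fall in bdg-8 carriers was next set against itself between backgrounds. With mock, the bdg-8 effect in p2k1-3 against that in Col-0 differed for 0 of 41 genes by edgeR and 0 by DESeq2, with 1 at an unadjusted p under 0.05 and 1.98% of all genes called. The median difference was 0.11 on the log2 scale, toward a smaller fall in p2k1-3.

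ATP treatment for 30 min changed no gene of the set past the threshold in Col-0, where 0 of 41 genes were called by edgeR, 0 by DESeq2 and 0 at an unadjusted p under 0.05. The median log2 fold change was 0.07. Among all genes 21.8% were called in either direction and 8.67% were called lower. LHCB1.3 had 15270.4, 17656 and 16213 CPM in ATP-treated Col-0, against 16026, 14307 and 14438 CPM in mock-treated Col-0, and RBCS1A had 11519.9, 13939 and 12753 CPM in ATP-treated Col-0, against 12365, 11742 and 12182 CPM in mock-treated Col-0. The treated and control libraries overlapped in both. Without replicate 1 of every group, 14 genes were called.

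In p2k1-3, 2 of 41 genes were called higher with ATP (median 0.13), where 11.9% of all genes were called higher and 8.53% lower. The log2 fold change was positive for 39 of 41, and 9 had an unadjusted p under 0.05. In 20 genes every ATP-treated library was above every mock-treated library, an arrangement found in 3857 of all 20995 genes. LHCA5 had 95.1, 104 and 100.2 CPM in ATP-treated p2k1-3, against 92.1, 79.5 and 84.0 CPM in mock-treated p2k1-3, a log2 fold change of 0.23 ± 0.07 (SE; edgeR adjusted p = 0.017). PSBS had 954, 1105 and 1027 CPM in ATP-treated p2k1-3, against 947, 819.6 and 885 CPM in mock-treated p2k1-3, a log2 fold change of 0.22 ± 0.08 (SE; edgeR adjusted p = 0.043). The count of called genes was small and unsteady. DESeq2 called 4. Without p2k1-3 mock replicate 1, 4 were called, without its replicate 2 or its replicate 3, 0, without ATP replicate 2, 0, and without ATP replicate 3, 1. Without replicate 1 of every group 16 were called, and 0 without replicate 2 or without replicate 3 of every group.

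In bdg-8, 4 of 41 genes fell with ATP, all antenna genes, with a median over the set of -0.03. Among all genes 17.7% were called lower, a larger part than in the set. LHCB2.1 had 864, 948 and 794 CPM in ATP-treated bdg-8, against 989, 1330.2 and 1128 CPM in mock-treated bdg-8, a log2 fold change of -0.40 ± 0.11 (SE; edgeR adjusted p = 0.0047). LHCB2.3 had 222, 287 and 229 CPM in ATP-treated bdg-8, against 265, 438 and 349 CPM in mock-treated bdg-8, a log2 fold change of -0.51 ± 0.18 (SE; edgeR adjusted p = 0.029). The groups did not overlap for LHCB2.1 and did for LHCB2.3. LHCB2.2 had 988, 1088 and 953 CPM in ATP-treated bdg-8, against 1055, 1442 and 1247 CPM in mock-treated bdg-8, a log2 fold change of -0.31 ± 0.10 (SE; edgeR adjusted p = 0.02). LHCB4.2 had 640.5, 741 and 649 CPM in ATP-treated bdg-8, against 710.2, 945 and 816 CPM in mock-treated bdg-8, a log2 fold change of -0.28 ± 0.11 (SE; edgeR adjusted p = 0.039). Both overlapped between treatments. DESeq2 called 2 genes. Without bdg-8 mock replicate 2, 1 was called, without its replicate 3, 2, without ATP replicate 1, 1, and without ATP replicate 3, 1. Without replicate 3 of every group 0 were called.

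In the double mutant, 14 of 41 genes fell with ATP (median -0.19), beside 16.5% of all genes. The falls were in LHCII (7 of 8), the minor antenna (1 of 5), LHCI (2 of 6) and photosystem I (4 of 11), with 0 of 7 photosystem II and 0 of 4 Rubisco genes called, among which 2 and 0 had an unadjusted p under 0.05 and DESeq2 called 1 and 0. LHCB2.1 had 619, 834 and 687 CPM in the ATP-treated double mutant, against 989, 1110.0 and 1057 CPM in the mock-treated double mutant, a log2 fold change of -0.56 ± 0.11 (SE; edgeR adjusted p = 0.00021). LHCB2.2 had 715, 918 and 805 CPM in the ATP-treated double mutant, against 1099, 1212 and 1161 CPM in the mock-treated double mutant, a log2 fold change of -0.51 ± 0.10 (SE; edgeR adjusted p = 0.00028). LHCB4.2 had 455, 611 and 521 CPM in the ATP-treated double mutant, against 679, 819.9 and 727 CPM in the mock-treated double mutant, a log2 fold change of -0.49 ± 0.11 (SE; edgeR adjusted p = 0.00074). Treated libraries were below control libraries without overlap in these 3. LHCB2.3 had 121, 229.6 and 173 CPM in the ATP-treated double mutant, against 209, 286 and 252 CPM in the mock-treated double mutant, a log2 fold change of -0.51 ± 0.18 (SE; edgeR adjusted p = 0.033). LHCB1.4 had 806, 1341 and 1038 CPM in the ATP-treated double mutant, against 1255, 1579.5 and 1414 CPM in the mock-treated double mutant, a log2 fold change of -0.42 ± 0.15 (SE; edgeR adjusted p = 0.039). For both of these the highest treated library reached into the range of the controls. PSAD2 had 365, 478 and 437 CPM in the ATP-treated double mutant, against 514, 585 and 549 CPM in the mock-treated double mutant, a log2 fold change of -0.36 ± 0.09 (SE; edgeR adjusted p = 0.0034). PSAD1 had 1308, 1517 and 1453 CPM in the ATP-treated double mutant, against 1649.9, 1846 and 1721 CPM in the mock-treated double mutant, a log2 fold change of -0.29 ± 0.07 (SE; edgeR adjusted p = 0.0017). RBCS1A, which did not pass the test, had 7620.0, 9186 and 8716 CPM in the ATP-treated double mutant, against 7835, 9539 and 8202 CPM in the mock-treated double mutant, with overlapping groups. In that comparison, 13 of the 41 genes had all treated libraries below all controls, against 23.2% of all genes.

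The count in the double mutant depended on single libraries. Without mock replicate 2 of the double mutant 8 were called, without its mock replicate 3, 9, without ATP replicate 1, 6, without ATP replicate 2, 23, and without ATP replicate 3, 7. Without replicate 3 of every group 2 were called, and without replicate 2 of every group 22. Without TMM scaling of the libraries 30 were called.

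**Figure D4:**
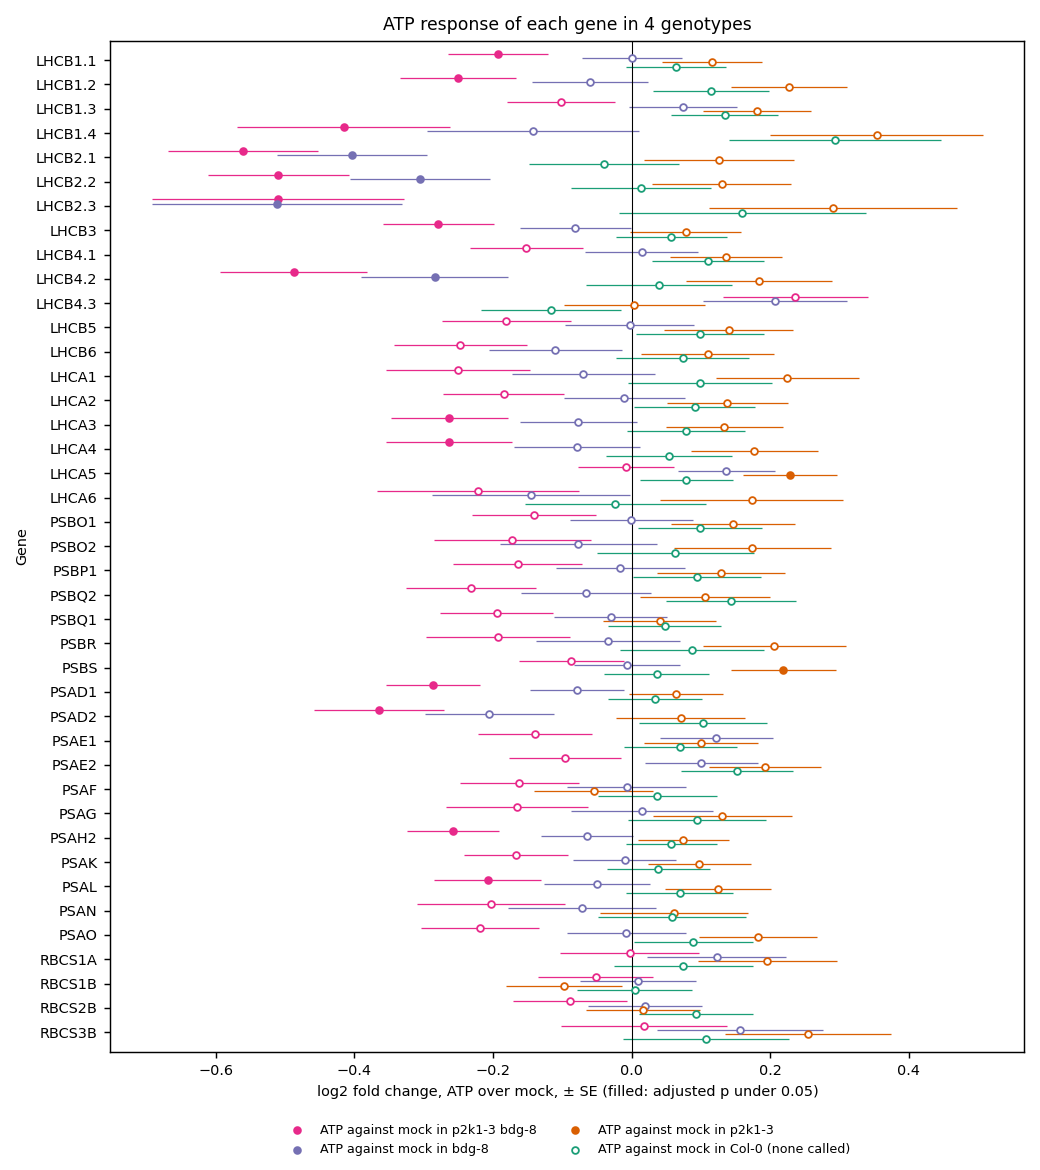
Log2 fold change ± SE, ATP against mock, of the 41 tested genes in the double mutant, bdg-8, p2k1-3 and Col-0, ordered by role. Filled points passed the edgeR test. The genes lie mostly below 0 in the double mutant, with the LHCB2 genes lowest, and slightly above 0 in p2k1-3 and Col-0.

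Whether these ATP responses differed was tested as an interaction. The response of the double mutant against that of p2k1-3 differed for 16 of 41 genes, all lower in the double mutant (median -0.32), beside 6.38% of all genes. They were 7 of 8 LHCII genes, 1 of 5 minor antenna genes, 3 of 6 LHCI genes and 5 of 11 photosystem I genes. Of the 7 photosystem II genes 0 were called by edgeR and 2 by DESeq2, with 6 at an unadjusted p under 0.05 and a lowest adjusted p of 0.055 by edgeR. Of the 4 Rubisco genes 0 were called by either tool and 0 had an unadjusted p under 0.05. LHCB2.1 had a difference in log2 fold change of -0.69 ± 0.15 (SE; edgeR adjusted p = 0.0023), made of -0.56 in the double mutant and 0.13 in p2k1-3. For LHCB2.3 the difference was -0.80 ± 0.26 (SE; edgeR adjusted p = 0.033), made of -0.51 and 0.29 in the same genotypes. LHCB1.4 differed by -0.77 ± 0.22 (SE; edgeR adjusted p = 0.015), LHCB4.2 by -0.67 ± 0.15 (SE; edgeR adjusted p = 0.0023), LHCB2.2 by -0.64 ± 0.14 (SE; edgeR adjusted p = 0.0023) and LHCB1.2 by -0.48 ± 0.12 (SE; edgeR adjusted p = 0.0058). In p2k1-3 these genes had positive log2 fold changes with ATP, none of them called by edgeR. Among the 8 tested LHCII genes there, 3 had an unadjusted p under 0.05. The lowest adjusted p by edgeR was 0.058, and DESeq2 called 2 of the 8. Libraries of p2k1-3 held 1627, 1708 and 1575 CPM of LHCB2.1 with ATP and 1652, 1358 and 1486 CPM with mock. For LHCB1.4 they held 2131, 2064 and 1981 CPM with ATP and 1870.2, 1393 and 1571 CPM with mock, and for LHCB1.2 5992, 5999 and 5856 CPM with ATP and 5525, 4710.2 and 5012 CPM with mock. Without replicate 3 of every group, 0 of the 16 were called. All 16 kept their sign, which leaving out a library near a mixture of the others could hardly change. Without p2k1-3 mock replicate 2, 6 were called, without its mock replicate 3, 9, without double mutant mock replicate 2, 7, and without its ATP replicate 1, 5. Without ATP replicate 2 of the double mutant 27 were called, and without its ATP replicate 3, 10. Without TMM scaling 27 were called.

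The other interactions called no gene of the set. In bdg-8 against Col-0, 0 were called by edgeR and 0 by DESeq2, 6 had an unadjusted p under 0.05, the median difference was -0.11, and 7.91% of all genes were called. There 2 were called without bdg-8 mock replicate 1, and 17 without replicate 1 of every group. In the double mutant against bdg-8, 0 were called by either tool, 2 had an unadjusted p under 0.05, the median difference was -0.16, and 0.638% of all genes were called. In p2k1-3 against Col-0, 0 were called by either tool, 0 had an unadjusted p under 0.05, the median difference was 0.05, and 4.48% of all genes were called. The fall of LHCB2 genes with ATP in bdg-8 is therefore not shown to differ from the response of Col-0.

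Other genes of photosynthesis, grouped in lists chosen by function, were set beside the members. Counts are first given for the double mutant against p2k1-3 with ATP and for bdg-8 against Col-0 with mock. In these, 25.2% and 18.5% of all genes were called lower. Of 10 other photosystem subunits, 9 and 9 were lower, led by the photosystem II assembly factor PSB27 (-0.81 and -0.61) and PPL1 (-0.75 and -0.64). Of 13 electron carriers and ATP synthase subunits, 11 and 11 were lower, among them PGRL1A of cyclic electron flow (-0.99 and -0.69) and the plastocyanin gene PETE2 (-0.68 and -0.53). Of 16 genes of the Calvin-Benson cycle, 14 and 15 were lower, with the largest falls in CP12-2, which ties down enzymes of the cycle in the dark (-0.98 and -1.06), and PRK, phosphoribulokinase (-0.87 and -0.68). Of 16 tested genes of chlorophyll synthesis, 13 and 11 were lower, among them CRD1, a subunit of the cyclase (-0.74 and -0.44), and CAO, which makes chlorophyll b (-1.05 and -0.40). In the order above, the lists had 3, 7, 11 and 8 lower in the double mutant against p2k1-3 with mock, beside 16.1%. They had 10, 12, 14 and 12 lower in bdg-8 against Col-0 with ATP, beside 21.3%. Calls in these lists and those below were not recounted without replicate 3. No test set these lists against the members.

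Photoprotection genes split. Of 10, 8 fell in each of the 4 comparisons of bdg-8 carriers. Of all genes, 25.2% and 21.3% were called lower in the double mutant and bdg-8 with ATP, and 16.1% and 18.5% with mock. Those that fell included ZEP, zeaxanthin epoxidase (-1.08 in the double mutant with ATP and -0.76 in bdg-8 with mock). STN7, the kinase that phosphorylates LHCII, fell too (-0.97 and -0.71). Called higher were 2 of the 10 in each comparison with ATP and 1 in each with mock. ELIP1, a stress-induced relative of the LHC proteins, was higher, with log2 fold changes of 1.14 ± 0.12 (SE; edgeR adjusted p = 1.9e-08) in the double mutant with ATP and 0.85 ± 0.11 (SE; edgeR adjusted p = 4.8e-06) in bdg-8 with mock. Among all genes 6038 of 20995 were called higher in the first of these comparisons and 3778 in the second. Chloroplast-encoded genes (7, read here in polyA-selected RNA) were called in 0 of the 4 comparisons by edgeR and 0 by DESeq2. At an unadjusted p under 0.05 there was 1, in the double mutant against p2k1-3 with mock. They had median log2 fold changes of -0.33, -0.29, -0.53 and -0.34 in the double mutant and bdg-8 with ATP and the double mutant and bdg-8 with mock. Their summed level varied widely within groups, from 207 to 597 CPM in mock-treated bdg-8.

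Regulators of these genes, 20 in all, changed in the same comparisons. In the double mutant against p2k1-3 with ATP, 15 were lower, beside 25.2% of all genes, and 1 was higher, beside 28.8%. In bdg-8 against Col-0 with mock 12 were lower, beside 18.5%, and the other 8 were not called. In the double mutant against p2k1-3 with mock 9 were lower, beside 16.1%, and 1 was higher, beside 15.1%. In bdg-8 against Col-0 with ATP 15 were lower, beside 21.3%, and 1 was higher, beside 24.5%. GLK2, a GOLDEN2-LIKE activator of LHC genes, had log2 fold changes of -1.74 ± 0.08 (SE; edgeR adjusted p = 1.5e-14) in the double mutant with ATP and -0.86 ± 0.07 (SE; edgeR adjusted p = 9.3e-09) in bdg-8 with mock. SIG5, a sigma factor of the chloroplast RNA polymerase, had -1.16 and -0.99, and PIF1, a phytochrome-interacting repressor of greening, had -1.41 and -0.43. With ATP 13 of 20 fell in the double mutant, 14 in bdg-8, 9 in p2k1-3 and 12 in Col-0, beside 16.5%, 17.7%, 8.53% and 8.67% of all genes. In the same order 1, 1, 3 and 1 rose, beside 17.1%, 18.7%, 11.9% and 13.2%. GLK2 had log2 fold changes with ATP of -1.19 in the double mutant, -1.296 in bdg-8 and -0.52 in Col-0, all called, and of -0.17 in p2k1-3, which was not (edgeR adjusted p = 0.092). Both activators and repressors of photosynthesis genes are among those that fell. The ATP response of 9 regulators was lower in the double mutant than in p2k1-3, beside 6.38% of all genes, and that of 1 was higher, beside 9.85%. The lowest had differences of -1.27 for the GATA factor CGA1, -1.03 for PIF1 and -1.01 for GLK2.

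**Figure D5:**
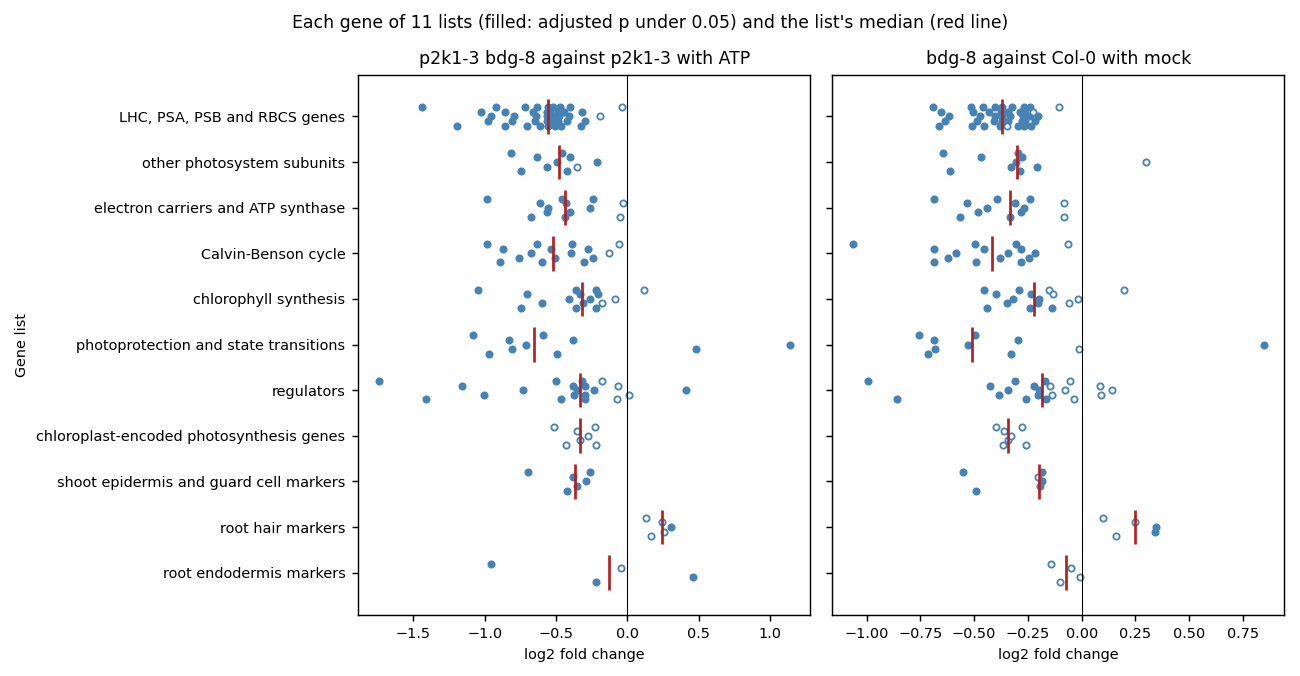
Log2 fold change of each tested gene of the photosynthesis set and the other lists, in the double mutant against p2k1-3 with ATP and in bdg-8 against Col-0 with mock. Points are genes, filled where they passed the edgeR test, and red lines are list medians. The lists of nuclear photosynthesis genes lie below 0 in both, and root hair markers lie above 0.

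Markers of other tissues moved in the same comparisons. All 5 root hair markers had positive log2 fold changes in each of the 4 comparisons of bdg-8 carriers. Of these 5, 1 was called higher in the double mutant and 3 in bdg-8 with ATP, and 3 in the double mutant and 2 in bdg-8 with mock. Of all genes, 28.8%, 24.5%, 15.1% and 18% were called higher in those comparisons. Their summed level was 100.1 to 122 CPM in the ATP-treated double mutant, against 79.3 to 103 CPM in ATP-treated p2k1-3, and 128 to 165 CPM in mock-treated bdg-8, against 102 to 134 CPM in mock-treated Col-0. Of 4 root endodermis markers, 1 was higher and 2 were lower in the double mutant with ATP, and 0 were called in bdg-8 with mock, with 0 at an unadjusted p under 0.05 and 0 by DESeq2. In the double mutant with mock 1 was lower. In bdg-8 with ATP 0 were called by edgeR and 1 by DESeq2, while 3 had an unadjusted p under 0.05. There 3 log2 fold changes were positive and 1 was negative. The summed level of the endodermis markers was 15.5 to 18.0 CPM in the ATP-treated double mutant, against 18.0 to 18.3 CPM in ATP-treated p2k1-3, and 22.6 to 23.6 CPM in mock-treated bdg-8, against 20.8 to 26.7 CPM in mock-treated Col-0. Root markers thus did not all move one way. Of 6 shoot epidermis and guard cell markers, 6 were lower in the double mutant and 6 in bdg-8 with ATP, and 3 and 5 with mock. Of all genes, 25.2%, 21.3%, 16.1% and 18.5% were called lower there. The list was led by the epidermal regulator ATML1 (-0.70 in the double mutant with ATP and -0.49 in bdg-8 with mock) and the epidermal protein gene PDF1 (-0.38 and -0.55). Their summed level was 566 to 602 CPM in the ATP-treated double mutant, against 753 to 763 CPM in ATP-treated p2k1-3, and 559.9 to 629 CPM in mock-treated bdg-8, against 722 to 766 CPM in mock-treated Col-0. No marker was at 0 in any group. The part of shoot and root proportions in the fall of the photosynthesis genes was not tested.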

How the data were processed

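The 42 genes and the other lists were chosen with earlier results of these data known. Values were deposited by the authors as raw read counts per gene, 1 table per library, with 33245 genes and 5 HTSeq summary entries. The summary entries were left out and made up 7.60 to 12.2% of the total of a library. Ambiguous reads were 4.03 to 4.40% of that total, and reads without a unique alignment 3.13 to 7.59%. The submitters' processing notes name STAR 2.7.4a, HTSeq 0.13.5, cutadapt 1.13 and MultiQC 1.9. Build, annotation and strand setting are not given in the sources used here. Reads from overlapping genes and close copies may therefore be lost or split.

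Counts were compared with edgeR 4.0.16 (limma 3.58.1, R 4.3.3). TMM factors ran from 0.954 to 1.07. The default filter on low counts over the 8 groups kept 20995 genes, 41 of the 42 among them. All 24 libraries entered a single quasi-likelihood fit that gave each group its own mean (16 residual degrees of freedom, median biological coefficient of variation 0.0477). The 17 comparisons were contrasts of that model. P-values were adjusted by Benjamini-Hochberg across the genes kept, with a call at an adjusted p under 0.05. Standard errors of log2 fold changes derive from the F statistic, and CPM use TMM-scaled library sizes. DESeq2 1.42.0, no TMM, no filter, a replicate block and leaving out libraries were the alternatives.

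Values in every library were given for the most abundant gene of each role, and for up to 6 called genes with the largest change and 4 with the smallest p in a comparison. From each other list up to 3 called genes with the largest change in a comparison were named. LHCB4.1, LHCB3, PSBQ1, PSBQ2, LHCA2 and RBCS1B were named as members. Promoters, exon lengths, overlaps and coding identity came from the RefSeq TAIR10.1 reference. The match of that reference to the build used for counting was not known, so its coordinates describe the genes and were not joined to reads.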

Additional observations from a re-analysis of the deposited data

Results flagged for a closer look

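The ATP response differed between the double mutant and p2k1-3, by the interaction test of edgeR, for 16 of the 41 tested genes. The differences in log2 fold change were negative in all 16, so each gene was lower with ATP, relative to mock, in the double mutant than in p2k1-3. In LHCII they were -0.80 for LHCB2.3, -0.77 for LHCB1.4, -0.69 for LHCB2.1, -0.64 for LHCB2.2, -0.48 for LHCB1.2, -0.36 for LHCB3 and -0.31 for LHCB1.1. The minor antenna gene LHCB4.2 had -0.67. In the photosystem I antenna they were -0.48 for LHCA1, -0.44 for LHCA4 and -0.40 for LHCA3. Among photosystem I subunits they were -0.44 for PSAD2, -0.40 for PSAO, -0.35 for PSAD1, -0.33 for PSAH2 and -0.33 for PSAL. The 7 photosystem II genes were not called by edgeR, though 6 had an unadjusted p under 0.05, the lowest adjusted p was 0.055 and DESeq2 called 2. Of the 4 Rubisco genes 0 were called by either tool and 0 had an unadjusted p under 0.05. Without replicate 3 of every group 0 of the 16 were called. All kept their sign, which leaving out a library near a mixture of the others could hardly change. What lies behind the resemblance of replicate 3 to a mixture of the others was not tested.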

How the results depend on the processing

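Counts of called genes among the 41 are given here. The 179 gene results called in the main fit were recomputed under each setting that applied to them, which gave 2602 values. Of these, 2250 kept the call, 352 lost it and 0 reversed direction. These settings reuse most or all of the same libraries, so the sign of a called gene could hardly change. Without TMM, ATP calls were 30 in the double mutant, 9 in bdg-8 and 1 in p2k1-3, the double mutant against bdg-8 with ATP had 5 and the response of the double mutant against p2k1-3 had 27; that scaling moved the all-gene median of ATP against mock in bdg-8 to -0.12. With no filter, p2k1-3 against Col-0 with ATP had 1 and the double mutant against bdg-8 with ATP 7. DESeq2 gave 4 for ATP in p2k1-3, 2 in bdg-8, 1 for p2k1-3 against Col-0 with ATP and 6 for the double mutant against bdg-8 with ATP. With the replicate block, ATP in p2k1-3 had 4, p2k1-3 against Col-0 with mock 1 and the double mutant against bdg-8 with ATP 14; it moved no other count by over 1.5 times. The labels do not say what a replicate number marks, and deviations of same-numbered libraries correlated weakly, at medians of 0.04, 0.00016 and 0.03, so the main fit had no block. Still, 20 of 24 libraries correlated best with their own number, a hint of pairing from the data and not from the design. Leaving out 1 library, or 1 replicate number from every group, gave the following ranges. For ATP in the double mutant the count ran from 2 to 23, in bdg-8 from 0 to 6, in p2k1-3 from 0 to 16 and in Col-0 from 0 to 14. For bdg-8 carriers with ATP it ran from 36 to 40 in the double mutant against p2k1-3 and from 26 to 40 in bdg-8 against Col-0, and with mock from 1 to 37 and from 10 to 40. For the double mutant against bdg-8 it ran from 0 to 19 with ATP and from 0 to 1 with mock. For p2k1-3 against Col-0 it ran from 0 to 12 with ATP and from 0 to 16 with mock. For the ATP response it ran from 0 to 32 in the double mutant against p2k1-3 and from 0 to 17 in bdg-8 against Col-0, and stayed at 0 in the other interactions. Both comparisons of bdg-8 carriers with ATP held best. Replicate 3, the few libraries per group and overlapping or near-identical genes limit all other counts, and the cause of these shifts was not tested.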
